A study of Oncorhynchus mykiss with 6 samples.

Results

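The miR-33 family was measured in dorsal skin of rainbow trout by small RNA sequencing, and 4 of the 1426 entries of the deposited miRNA table carried its name. The members were chosen by name, as all entries reading miR-33 with no further digit, whatever the species prefix, arm or length. The family itself was selected on its higher counts in yellow mutant skin in an earlier look at the same 6 libraries. Its difference between the groups is therefore given as a description, and the calls over all entries listed further on are no evidence for it. WR_S was wild-type and YR_S yellow mutant, each with 3 female fish at 12 months post hatching, 1 library per fish, from the same pond with flowing water. All the fish were anaesthetised with a lethal dose before sampling, the labels name no other treatment, and the gene mutated in YR_S was not given in the sources used here. Fish of each group were picked for like size and body colour.

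In animals from insects to mammals, miR-33 lies within an intron of a gene for a sterol regulatory element binding protein, the transcription factors that switch on cholesterol and fatty acid synthesis. In humans the host genes are SREBF2 (miR-33a) and SREBF1 (miR-33b). In mammals the 5p strand lowers ABCA1, which carries cholesterol out of cells, together with several enzymes of fatty acid oxidation. The 3p strand, long taken for the discarded strand of the hairpin, also acts on genes of lipid metabolism in mammalian cells. Roles in trout skin were not measured here, and neither were the host genes.

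The 4 entries held 3 distinct sequences, which are shown because arm and seed set which messages a miRNA can pair with. Capitals mark the seed, bases 2 to 8 from the 5′ end, and T stands for U as in the deposited table.
ssa-miR-33a-3p: cAATGTGTctgcagtgcagta
ssa-miR-33b-3p: cAATGTTCctgcagtgcaaga
ssa-miR-33b-5p_R-1 and gga-miR-33-2-5p_R-2: gTGCATTGtagttgcattgc

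The pair of 3p sequences was 21 nt long and identical at 17 positions. From 33a-3p to 33b-3p the changes were G7T, T8C, G19A and T20G, with positions counted from 1 at the 5′ end. As 2 of the 4 changes lay in bases 2 to 8, the 3p entries of 33a and 33b did not share a seed. Facing the 20 nt 5p sequence without gaps, 33b-3p formed 13 Watson-Crick and 3 G-U pairs over 19 positions, and 33a-3p formed 13 and 4. A 5p entry named for miR-33a was not among the members.

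All 1426 entries were then searched for the 3 seeds, and 2 entries outside the family held one. Both were labelled as predicted candidates and carried no database name.
PC-3p-25001_84: cAATGTTCctgcagtgcaagat
PC-5p-46836_29: tTGCATTGgttcggaacctgtt
The first holds the whole 33b-3p sequence and 1 further base at its 3′ end. The second shares only the seed of the 5p strand. The 33a-3p seed occurred in no other entry.

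Depth limited what could be seen of the scarce 5p strand. Summed counts ranged from 4375641 to 5089802 in 5 of the libraries, while YR_S replicate 1 held only 1442631. Levels are counts scaled to a library total of 1e6 with edgeR's TMM factors (CPM), and a count of 3 stood for 1.95 CPM in that library and for 0.578 to 0.765 CPM in the others. Below, the values of single libraries follow the order of replicates 1, 2 and 3. Counts are per read and not per base, and how evenly ligation and PCR took up different sequences was not measured, so orders of level between entries are orders of counts. Skin epithelium miRNAs (the miR-200, miR-141, miR-429, miR-203 and miR-205 families, 35 entries) summed to 26354 to 36672 CPM in WR_S and 23184 to 35119 CPM in YR_S, so markers of the labelled tissue were abundant in all 6 libraries.

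The 3p strand made up nearly all of the family. Over the 6 libraries ssa-miR-33b-3p had 2751 counts (83.0% of the family), ssa-miR-33a-3p had 532 (16.0%) and each 5p entry had 16.3 (0.493%). In each library the order was 33b-3p, then 33a-3p, then the 5p entries. The lowest level of 33b-3p, 67.3 CPM, was above the highest of 33a-3p, 39.5 CPM, and the lowest of 33a-3p, 11.0 CPM, was above the highest of a 5p entry, 1.29 CPM. Among the 1426 entries, 33b-3p ranked between 215 and 286 by count and 33a-3p between 337 and 476, so both lay in the upper part of the table.

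ssa-miR-33b-3p was the most abundant member. The WR_S libraries held 92.5, 67.3 and 101 CPM and the YR_S libraries 138, 170 and 144 CPM. Every YR_S library was above every WR_S library, as was the case for 8.29% of the 1085 entries tested. Mean levels were 87.0 ± 17.6 CPM for WR_S and 151 ± 16.7 CPM for YR_S (SD, n = 3 each), a ratio of 1.73. The log2 fold change of the fit over all entries was 0.79 ± 0.26 (SE).

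For ssa-miR-33a-3p the WR_S libraries held 14.8, 11.0 and 16.5 CPM and the YR_S libraries 33.8, 39.5 and 28.5 CPM. The groups did not overlap here either, and WR_S replicate 2 was the lowest library for both 3p entries while YR_S replicate 2 was the highest. Mean levels were 14.1 ± 2.80 CPM for WR_S and 33.9 ± 5.54 CPM for YR_S (SD, n = 3 each), a ratio of 2.40. Its log2 fold change was 1.26 ± 0.33 (SE). The YR_S replicate 1 value rested on 52 counts, with a 95% Poisson interval of 25.3 to 44.4 CPM that covers counting error only and lies above the 3 WR_S values.

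**Figure D1:**
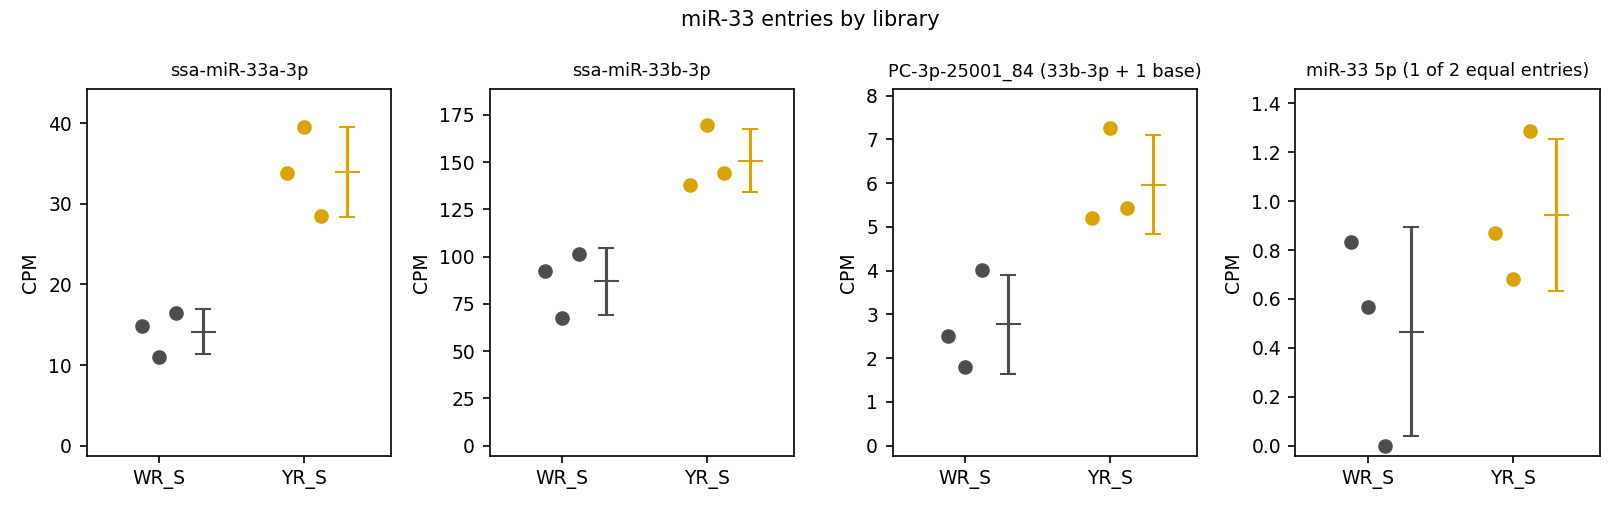
Level in CPM of the 33a-3p and 33b-3p entries, of the candidate that extends 33b-3p by 1 base and of 1 of the 2 equal 5p entries. Points are libraries, and the bar beside them is the mean with its SD (n = 3). In the first 3 panels all YR_S points lie above all WR_S points. The 5p groups overlap, at 0 to 0.835 CPM in WR_S and 0.680 to 1.29 CPM in YR_S.

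Summed, the 3p entries reached 107, 78.4 and 118 CPM for WR_S and 172, 209 and 173 CPM for YR_S. With the sum in place of the single entries the log2 fold change was 0.87 ± 0.26 (SE), and 0.63 without WR_S replicate 2, the lowest of the leave-one-out values. That library alone also took 33b-3p from 0.79 to 0.55 and 33a-3p from 1.26 to 1.03. TMM gave larger values than the other scalings. With no scaling factor the log2 fold changes were 1.16 for 33a-3p and 0.69 for 33b-3p, and the median over all entries tested moved from -0.03 to -0.13.

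The candidate PC-3p-25001_84, a 3′ extension of 33b-3p by sequence, reached 2.50, 1.81 and 4.02 CPM for WR_S and 5.21, 7.27 and 5.42 CPM for YR_S. Its groups did not overlap, as with the entry it extends and with 8.29% of the 1085 entries tested. Its log2 fold change was 1.10 ± 0.53 (SE), and its YR_S replicate 1 value rested on 8 counts. It reached 2.71, 2.68 and 3.97 counts per 100 counts of 33b-3p in WR_S and 3.77, 4.29 and 3.76 in YR_S, ranges that did overlap. Its name gave no sign of the family, and some of its counts were not whole, such as 8.5 in WR_S replicate 2. Adding it to the 3p sum gave a log2 fold change of 0.87.

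The 5p strand was close to the limit of detection. Its 2 entries, ssa-miR-33b-5p_R-1 and gga-miR-33-2-5p_R-2, had the same sequence and the same value in all 6 libraries, so they are 1 measurement listed under 2 names. Each held 4.33, 2.67 and 0 counts in the WR_S libraries and 1.33, 2.67 and 5.33 in those of YR_S. All 6 values were whole multiples of 1/3 (tolerance 1e-06), as a division of reads among 3 entries would give, whereas 2 entries held the sequence. Multiplied by 3, the values came to 13, 8 and 0 in WR_S and 4, 8 and 16 in YR_S, 49 in all.

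In CPM a 5p entry averaged 0.945 ± 0.310 in YR_S and 0.467 ± 0.426 in WR_S (SD, n = 3 each), and the groups overlapped. The count of 0 in WR_S replicate 3 allows up to 0.635 CPM, taking 3 undivided counts as the limit. That limit was not rescaled to the divided values of a 5p entry. The log2 fold change of 0.88 ± 1.17 (SE) had an error larger than itself, and it came to 0.24 once WR_S replicate 3 was left out, to 0.48 with YR_S replicate 3 left out and to 1.37 with WR_S replicate 1 left out. In this fit a difference of the 5p strand between the groups could not be told from the spread among libraries. The fit used the deposited values after rounding, and the values multiplied by 3 were not fitted. The other carrier of its seed, PC-5p-46836_29, held 0, 7 and 0 counts in the WR_S libraries and 12, 6 and 18 in those of YR_S. Every YR_S library was above every WR_S library, as in 8.29% of the 1085 entries tested. The margin was narrow, as WR_S replicate 2, at 1.49 CPM, and YR_S replicate 2, at 1.53 CPM, were nearly level. The log2 fold change of PC-5p-46836_29 was 3.10 ± 1.36 (SE) and rested on few counts.

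The share of 3p among the family counts overlapped between the groups. It came to 98.5%, 98.6% and 100% for WR_S and to 99.0%, 99.4% and 98.5% for YR_S, or 99.0% ± 0.855 and 99.0% ± 0.411 (SD, n = 3 each). With the 5p values multiplied by 3 the lowest share in any library was 97.7%. In WR_S replicate 3, where no 5p count was seen, the exact 95% binomial interval (Clopper-Pearson) of the 3p share began at 99.3%, and in YR_S replicate 1 the interval was 96.8% to 99.8%. Arm sums were rounded to whole counts for these intervals, which put the share of YR_S replicate 1 at 98.9%. The 5p values were used as deposited and not multiplied by 3, so the intervals are approximate.

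The balance of the 3p entries did not overlap between the groups. This ratio is taken within a library and does not move with the scaling. ssa-miR-33a-3p had 16.0, 16.4 and 16.3 counts per 100 counts of ssa-miR-33b-3p in the WR_S libraries, and 24.5, 23.3 and 19.7 in those of YR_S. The WR_S libraries lay close to each other while the YR_S libraries spread more widely. How often the ratio of other pairs of entries separates the groups was not counted, so whether this is unusual is not known.

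As a share of the 3p counts, 33a-3p came to 14.0% ± 0.140 in WR_S and 18.4% ± 1.69 in YR_S (SD, n = 3 each). Exact 95% binomial intervals were 10.7% to 18.1% in WR_S replicate 2 and 15.1% to 25.0% in YR_S replicate 1, and those of single libraries from the 2 groups overlapped. The WR_S shares lay closer together than the widths of their counting intervals, so their SD understates the uncertainty of each.

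**Figure D2:**
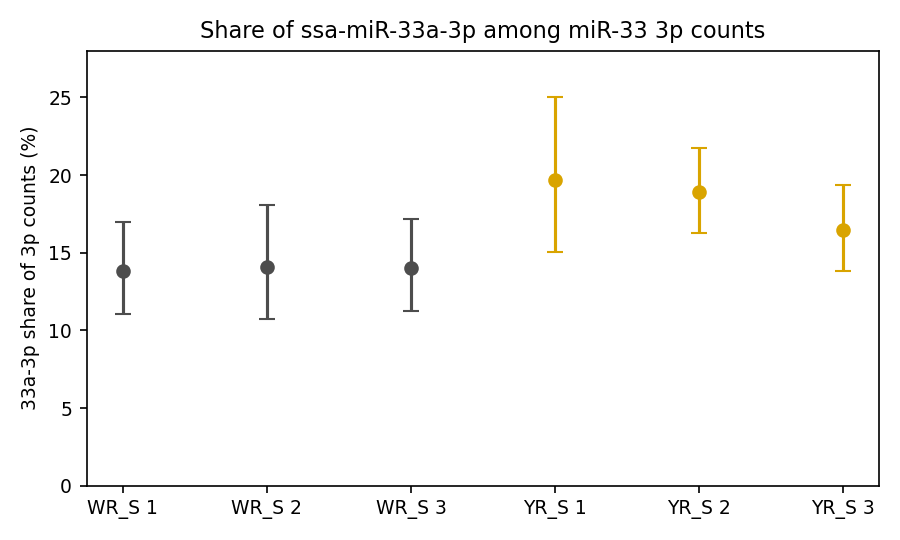
Share of ssa-miR-33a-3p in the 3p counts of the family, in percent, for each library. Bars are exact 95% binomial intervals, which cover counting error only. The WR_S points lie at 13.8% to 14.1% and the YR_S points at 16.5% to 19.7%, with overlapping intervals.

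Against all entries tested the members stood as follows, and since this contrast chose the family nothing is read from the counts. In edgeR's quasi-likelihood test over 1085 entries (those above 0 in at least 3 libraries), 0 of the 4 members had an adjusted p below 0.05, where 0% of all entries did. At an unadjusted p below 0.05, 113 entries were listed. At the thresholds of the study (p below 0.05 before adjustment and at least 1 on the log2 scale in either direction), 1 of the 4 members was listed as higher in YR_S, ssa-miR-33a-3p, where 1.75% of all entries were. DESeq2 with an adjusted p below 0.05 also listed ssa-miR-33a-3p as higher, 1 of the 2 members it gave an adjusted p, where 1.33% of the 976 entries with one were. Every YR_S library was above every WR_S library for 2 of the 4 members and for 8.29% of the 1085 entries.

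**Figure D3:**
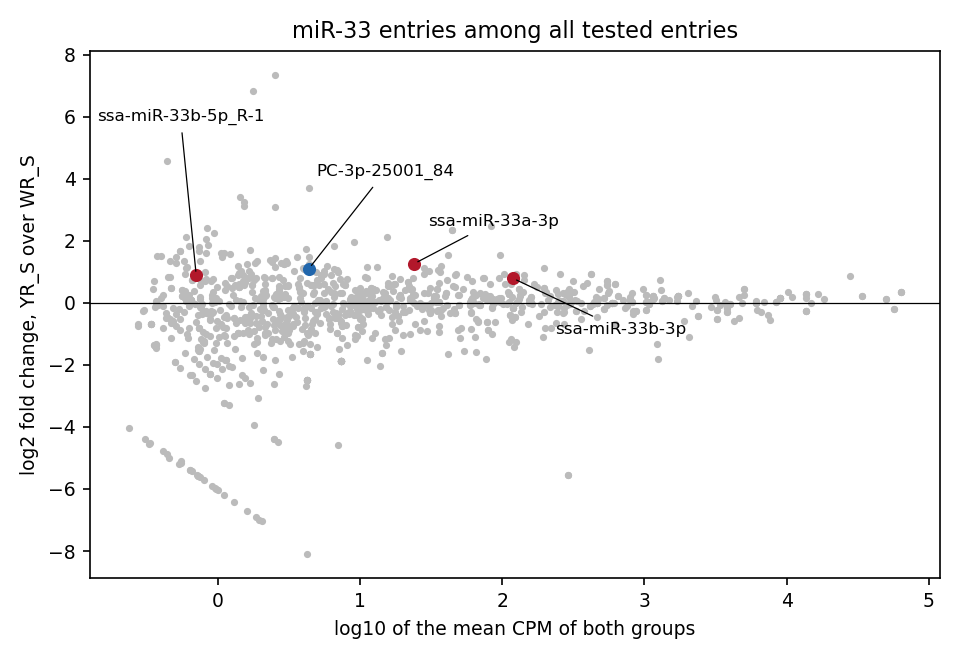
Log2 fold change of YR_S over WR_S against the log10 of the mean CPM for the 1085 entries tested (grey). The miR-33 entries are in red and the candidate that extends 33b-3p in blue. The 3p entries lie at 0.79 and 1.26 where scatter is moderate, and the 5p entry lies at 0.88 among scarce entries that scatter widely.

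Summed markers separated the groups for the pigment cell list and overlapped for the other lists. Their part in the miR-33 result was not tested. No marker entry had an adjusted p below 0.05 in edgeR's test. In bulk skin fewer cells of a type and less RNA per cell cannot be told apart. The pigment cell list (miR-204 and miR-211) had fitted log2 fold changes above 0 in 8 of 8 tested entries (median 0.89). Over all 1085 entries, 514 were above 0. All 8 carried the name miR-204, and tni-miR-204b_R+2_1ss11TC and hsa-miR-204-5p_R+2 had equal fitted values. The 8 are thus entries of 1 miRNA name and not independent of each other. The list summed to 18657 to 23430 CPM in WR_S and 36149 to 39851 CPM in YR_S. Most of that was ssa-miR-204-5p, averaging 19766 and 36235 CPM. Among single entries, every YR_S library was above every WR_S library in 8.29% of the 1085 tested. The study cites earlier work in which YR_S skin lacked melanocytes and held fewer xanthophores than WR_S. The list was thus higher where those cells were reported absent or fewer. Skeletal muscle miRNAs (miR-1, miR-133 and miR-206) had fitted log2 fold changes below 0 in 16 of 16 tested entries (median -1.57), and their sum overlapped between groups at 2626, 6761 and 12398 CPM for WR_S and 4857, 1990 and 1923 CPM for YR_S. The liver miRNA miR-122 summed to 3404 CPM in WR_S replicate 3 and to 5.86 to 51.3 CPM in the other libraries. Skin epithelium miRNAs, whose sums overlapped as given above, had log2 fold changes below 0 in 28 of 31 tested entries (median -0.31), where 571 of all 1085 entries did. Some epithelium entries had equal fitted values, such as ssa-miR-429-3p_R+1 and dre-miR-429a, so they are not independent of each other either. Red cell miRNAs (miR-451 and miR-144) had 3 log2 fold changes above 0 and 3 below, with sums of 33.5 to 309 CPM in WR_S and 106 to 272 CPM in YR_S.

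With WR_S replicate 3 and YR_S replicate 1 both left out, a pair chosen after seeing the data, the log2 fold changes were 1.29 for 33a-3p and 0.88 for 33b-3p. WR_S replicate 2 was kept, though its muscle sum of 6761 CPM was above the 4857 CPM of YR_S replicate 1. Leaving out WR_S replicate 2 alone gave the lower values of 1.03 and 0.55. With muscle and liver entries removed from the table the log2 fold changes were 1.16 for 33a-3p and 0.70 for 33b-3p. That step changes only library totals and scaling. Any miR-33 reads from muscle or liver stay in the table, so it cannot show whether such tissue contributed.

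The entries with the profile most like that of the 3p sum were sought over the 6 libraries, among 491 entries outside the family averaging at least 10 CPM. Likeness was the root mean square difference of log2(CPM + 1) values, each profile centred on its own mean. The nearest was ssa-miR-204-5p at 0.195, followed by ssa-miR-27a-3p_R-1 at 0.220, hsa-mir-204-p5 at 0.230, ssa-miR-22b-3p at 0.239 and gmo-miR-34-5p at 0.240, where the median over all 491 was 0.559. Any entry that was higher in all YR_S libraries by a like amount comes close by this measure, because the points share the same 2 groups and libraries.

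The nearest entry, ssa-miR-204-5p, held 22317, 17761 and 19222 CPM in the WR_S libraries and 38106, 34199 and 36399 CPM in those of YR_S, far more abundant than miR-33. For ssa-miR-27a-3p_R-1 the values were 345, 266 and 291 CPM in WR_S and 411, 470 and 441 CPM in YR_S, with the lowest and the highest in the same libraries as for the 3p sum. The difference between 33a-3p and 33b-3p by this measure was 0.227, and between PC-3p-25001_84 and 33b-3p 0.135. For the 5p sum the nearest entries were aca-miR-204a-5p_L+2 (0.229), ssa-miR-23a-3p_R+3 (0.263), ssa-miR-101a-5p_R-1 (0.311), ssa-miR-15b-5p_R+1 (0.321) and ssa-miR-101b-5p_L+1R-2 (0.334), but its profile rests on few counts.

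**Figure D4:**
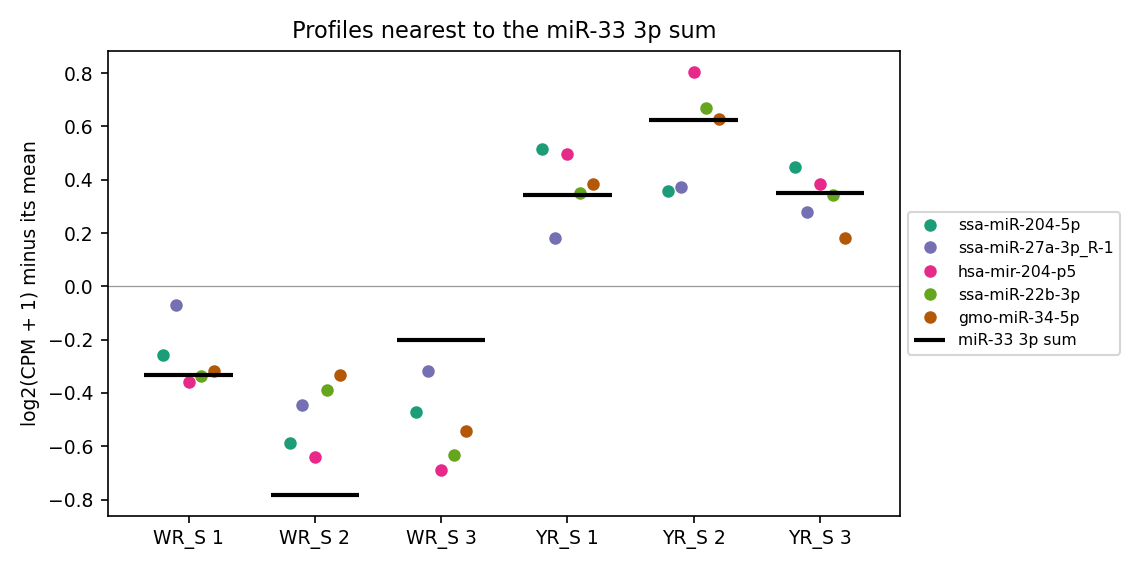
Log2(CPM + 1) of the summed miR-33 3p entries (black bars) and of the 5 nearest profiles (coloured points), each minus its mean over the 6 libraries. All 6 profiles lie below their mean in the WR_S libraries and above it in the YR_S libraries, with root mean square differences from the 3p sum of 0.195 to 0.240.

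Other miRNAs known in mammals to act on genes of cholesterol and lipid handling were listed for comparison, in 21 families beside miR-33. Of their 180 entries 159 were tested. On the log2 scale 80 of these were above 0 and 79 below, and their median was 0.01, against -0.03 over all 1085. In edgeR's test 0 had an adjusted p below 0.05, and 13 had an unadjusted p below 0.05, where 10.4% of all entries did. At the thresholds of the study 0 were higher and 8 lower, where 1.75% and 6.45% of all entries were. YR_S lay wholly above WR_S in 12 of the 159, where it did so in 8.29% of all entries. These shares are near or below those of the whole table. Among the families listed, miR-185 alone had no tested entry.

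Within the list, some miRNAs that act on ABCA1 in mammals are given as examples, and their values differed. The list was not sorted in full by target gene. gmo-miR-145-5p, of a family abundant in smooth muscle and stroma, averaged 441 ± 126 CPM for WR_S and 651 ± 131 CPM for YR_S (SD, n = 3 each). ssa-miR-27b-3p, whose family also acts on SREBF genes, averaged 5978 ± 190 and 6235 ± 707 CPM in the same order, and ssa-miR-26a-5p 4061 ± 415 and 3957 ± 892 CPM. Neither of these last 2 entries had groups that were apart, whereas those of miR-145 were, as in 8.29% of all entries tested. The log2 fold change of gmo-miR-145-5p was 0.56 ± 0.29 (SE), with an adjusted p of 0.607 in edgeR's test. Entries of 1 family could differ, as ssa-miR-27a-3p_R-1 had groups apart at 266 to 345 CPM in WR_S and 411 to 470 CPM in YR_S.

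ssa-miR-128-3p and ssa-miR-148a-3p_R-1, of families that lower the LDL receptor in mammals, had groups that overlapped. The first averaged 931 ± 115 CPM for WR_S and 1116 ± 80.5 CPM for YR_S, and the second 2721 ± 857 and 2042 ± 792 CPM (SD, n = 3 each). ssa-miR-182-5p, comes from a cluster that SREBP2 switches on in mice. It averaged 79.9 ± 35.6 CPM for WR_S and 27.6 ± 10.9 CPM for YR_S (SD, n = 3 each), with YR_S wholly below WR_S. How many of all entries lay that way was not counted, while 6.45% were lower at the thresholds of the study. The log2 fold change of ssa-miR-182-5p was -1.54 ± 0.47 (SE), with an adjusted p of 0.273 in edgeR's test. ssa-miR-96-5p_R-1 of the same cluster averaged 21.5 ± 18.7 and 8.94 ± 8.94 CPM, with overlap.

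gmo-miR-34-5p, whose family responds to p53, held 43.1, 42.7 and 36.8 CPM in the WR_S libraries and 71.0, 84.2 and 61.5 CPM in those of YR_S. Its log2 fold change of 0.82 ± 0.27 (SE) was close to that of 33b-3p, with an adjusted p of 0.273 in edgeR's test. ssa-miR-122-5p_R+1, the hepatocyte miRNA, was at 1702 CPM in WR_S replicate 3 and at 2.93 to 25.6 CPM in the other libraries and its fitted value was -5.56 ± 2.05 (SE). Of the most abundant entries of the 20 families tested, 13 were higher and 7 lower in YR_S. Over all 1085 entries, 514 were higher. The smallest adjusted p among the 20 entries was 0.273 in edgeR's test. These entries were picked by level and not by arm, and the arm was 5p for miR-130, miR-29, miR-301 and miR-144, among others.

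**Figure D5:**
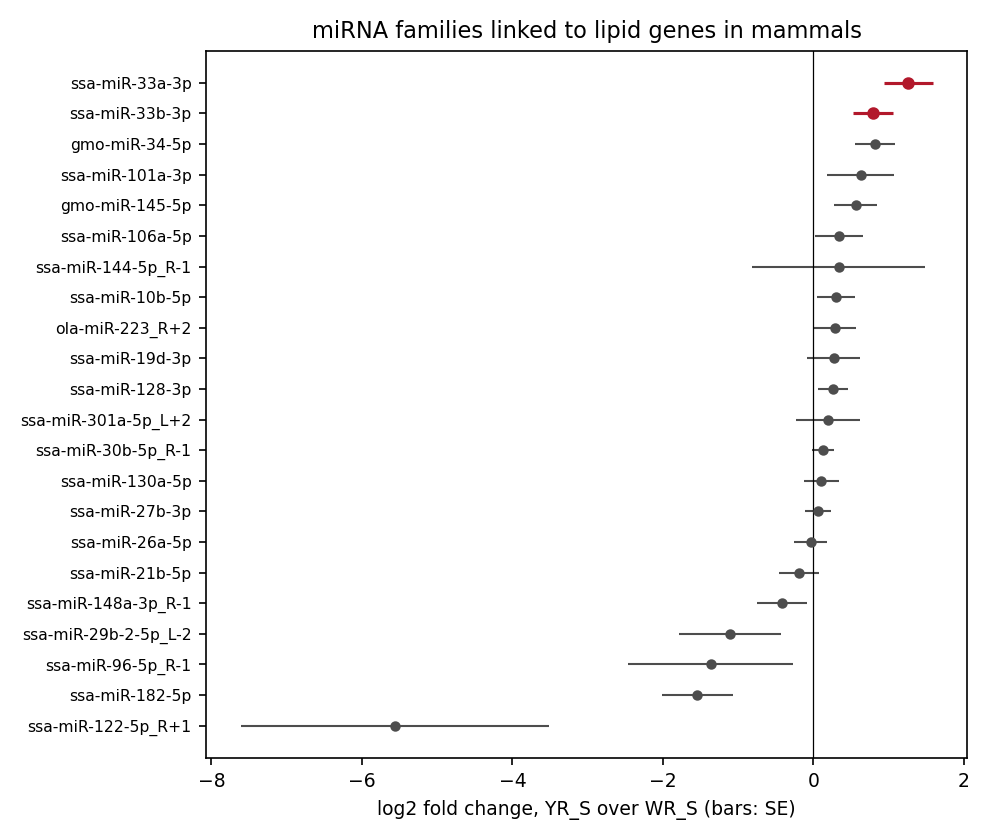
Log2 fold change of YR_S over WR_S with its SE for the most abundant tested entry of each of 20 families (grey) and for the miR-33 3p entries (red). The grey points run from -5.56 for miR-122 to 0.82 for miR-34, and the red points lie at 0.79 and 1.26.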

How the data were processed

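Small RNA libraries (TruSeq kit, single-end reads, Illumina HiSeq) were made from dorsal skin of 3 WR_S and 3 YR_S fish. The authors filtered the reads with ACGT101-miR, matched tags to miRBase release 22 and predicted candidates with Mireap. How shared reads were mapped is not given in the sources used here. They deposited, as the authors' own values, an estimated count per entry and library and a normalized signal. Of the count values above 0, 36.8% were not whole, as a division of shared reads among entries would give. Deposited group means, fold changes, log2 ratios and p-values of the authors' own comparison, in which the p-value is named as a t-type test and the ratio as a fold, were not used.

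Counts were rounded and tested with edgeR's quasi-likelihood test over 1085 entries, TMM scaling and Benjamini-Hochberg adjustment, two-sided. For arm sums the library sizes of the entry fit were kept. Python 3.11.15 with scipy 1.17.1 and R 4.3.3 with DESeq2 1.42.0, edgeR 4.0.16 and limma 3.58.1 were used, and the fit was tested on simulated data. The members and lists were chosen with earlier results of these data known. Named entries were the most abundant of each arm and of each lipid family, the 5 nearest profiles to each arm sum, and entries sharing a seed. Each fish gave 1 library, and the error behind a p-value is the spread among libraries within the groups, moderated by edgeR across entries. Alternatives were other scalings, filters, tools, pseudocounts, a replicate block, collapsed sequences and each library left out. Genome positions and hairpins were not used here.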

Additional observations from a re-analysis of the deposited data

How the results depend on the processing

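Both 3p entries and the 3p sum were higher in YR_S under every alternative run. Leaving out single libraries gave log2 fold changes of 1.03 to 1.30 for ssa-miR-33a-3p, 0.55 to 0.79 for ssa-miR-33b-3p and 0.63 to 0.86 for the 3p sum. For the 5p entry the range was 0.24 to 1.37 and for the 5p sum 0.38 to 1.79, against 0.88 and 1.04 with all libraries. Without WR_S replicate 3 and YR_S replicate 1 together, chosen after seeing the data, the 5p entry was 0.39 and the 5p sum 0.41. The 5p sum is the same measurement counted under both names and rounded after summing, so it is not a second result. The 3p share differed by -0.05 percentage points (YR_S minus WR_S) and by -0.33 to 0.44 with single libraries left out, changing sign without WR_S replicate 3 (0.44) and without YR_S replicate 3 (0.16). Over all entries DESeq2 called 36 at an adjusted p below 0.05 where edgeR called 0, also with each library left out, and limma called 0. At the thresholds of the study 19 were higher and 70 lower, 11 and 11 among entries averaging at least 10 CPM, and 11 to 19 and 44 to 93 with single libraries left out. The 5p entries were not tested at that level of 10 CPM. The median log2 fold change over all entries ran from -0.23 to -0.03 between settings.

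The replicate number as a block gave 1.27 for ssa-miR-33a-3p, 0.81 for ssa-miR-33b-3p and 0.88 for the 3p sum, with 0 entries called at the adjusted threshold and 19 higher and 58 lower at those of the study. Same-numbered libraries correlated in their deviations at 0.239, -0.027 and 0.332, and different-numbered libraries at -0.295 to 0.160. The values for replicates 1 and 3 were above that range and the value for replicate 2 was within it. Pairing of the samples by number is thus neither shown nor excluded.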
